A study of Homo sapiens with 6 samples.

Results

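The genes that pump drugs, phospholipid and bile salts out of liver cells were followed in HepG2 cells, an established human hepatocarcinoma line of wild-type genotype, after 24 h with glycine or vehicle. The list held 10 genes of the 57500 in each file and was fixed by gene name: 5 pumps of the canalicular surface and 5 exporters of the basolateral surface. Both groups were the same line in the same medium, the vehicle group without added glycine and the treated group with 10 mM glycine, and each had 3 libraries. The study states that its replicates were experiments on different days. The libraries hold bulk RNA of a single transformed line, so fewer cells with a transcript and less of it per cell cannot be told apart.

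The hepatocyte sends bile across its canalicular membrane and returns solutes to blood across its basolateral membrane. ABC transporters on both surfaces use ATP to move their substrates outward, and their genes are controlled by nuclear receptors that sense bile acids and foreign compounds. The heterodimer of SLC51A and SLC51B instead lets bile acids leave the basolateral side by facilitated diffusion. In liver disease with blocked bile flow, basolateral exporters are known to take over part of the load.

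The totals ran from 31795489 to 58815986 counts per library, and glycine replicate 2 was the deepest. Levels are given in CPM, the count relative to the TMM-scaled library size, in which 1 count stood for 0.0171 CPM in the deepest library and for 0.0313 CPM in the shallowest. All 7 hepatocyte markers (ALB, APOA1, APOB, TTR, SERPINA1, TF and HNF4A) were above 1 CPM in every library, and their summed level was 27150 to 30925 CPM with vehicle and 23689 to 26913 CPM with glycine. Of these markers APOA1 and TTR were called lower. Of 6 cholangiocyte markers 3 were above 1 CPM in every library, and the sum was 1985 to 2258 CPM with vehicle and 2068 to 2293 CPM with glycine. Its members differed in direction: KRT19 was called higher (log2 change 0.51), SOX9 was called lower (-0.26), and SPP1 was not called (-0.20). KRT7, at a mean of 0.16 CPM with vehicle and 0.411 CPM with glycine, was not called (log2 change 1.24, edgeR adjusted p = 0.106). CFTR had at most 5 counts per library and was not tested. AQP1 did not exceed 3 counts in any library. The sum of 3 leukocyte markers was 3.78 to 4.28 CPM with vehicle and 7.13 to 7.73 CPM with glycine, with CD14 (log2 change 0.98) and CD68 (0.63) called higher and the defining marker PTPRC at no more than 3 counts per library. The sum of 3 endothelial markers was 5.45 to 5.75 against 4.59 to 5.26 CPM, and VWF was called lower (log2 change -1.18). The sum of 3 fibroblast markers was 27 to 31 against 21.2 to 21.9 CPM, with PDGFRB called lower (log2 change -0.66) and COL1A1 called higher (1.03, from 2.15 ± 0.25 to 4.38 ± 0.598 CPM). The part of these markers in the results was not tested.

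ABCB4 and ABCB1 lie side by side on chromosome 7 and are close relatives. ABCB4 carries phosphatidylcholine to the bile side and ABCB1 is the P-glycoprotein drug pump. A stretch of 60 coding bases around the first ATP-binding loop (Walker A) of each is shown because their counts can be compared only if reads tell them apart. Both come from GENCODE 29 transcripts, lie in exon 12 of the transcript on the minus strand of GRCh38, at chr7:87550201-87550260 for ABCB1 and chr7:87443349-87443408 for ABCB4, and capitals mark the 4 bases that differ.
ABCB1: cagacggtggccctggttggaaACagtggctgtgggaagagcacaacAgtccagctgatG
ABCB4: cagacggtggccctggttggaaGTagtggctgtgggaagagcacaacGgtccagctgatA
Over the whole coding sequence 77.3% of 3813 aligned bases were identical, and the longest identical run was 122 bases. Of all 50-base words in the transcripts of ABCB1, 2.02% also occurred in another gene, which was ABCB4. For ABCB4 the share was 1.5%, and ABCB1 was again the only other gene. In the other 8 pump genes between 0% (ABCG2) and 5.34% (SLC51A) of such words occurred elsewhere, and the read length is not given in the sources used here. PCYT1A covers 7.35% of the exon length of SLC51A and RASL12 covers 6.38% of that of SLC51B. No other gene covers exons of the 8 ABC genes.

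Of the 10 genes, 9 had enough counts to be tested. Only ABCB4 was called, and it was lower with glycine. That is 1 of 9, or 11.1%, and across all 15492 tested genes 13.3% were called, with 6.54% called lower and 6.71% higher (edgeR quasi-likelihood test, adjusted p under 0.05). The median log2 change was -0.06 for the 9 pumps and 0.00 for all tested genes. The share of called pumps was near the background share. In 2 of the 9 (ABCB4 and ABCC2) the groups did not overlap, against 31.6% of all tested genes.

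**Figure D1:**
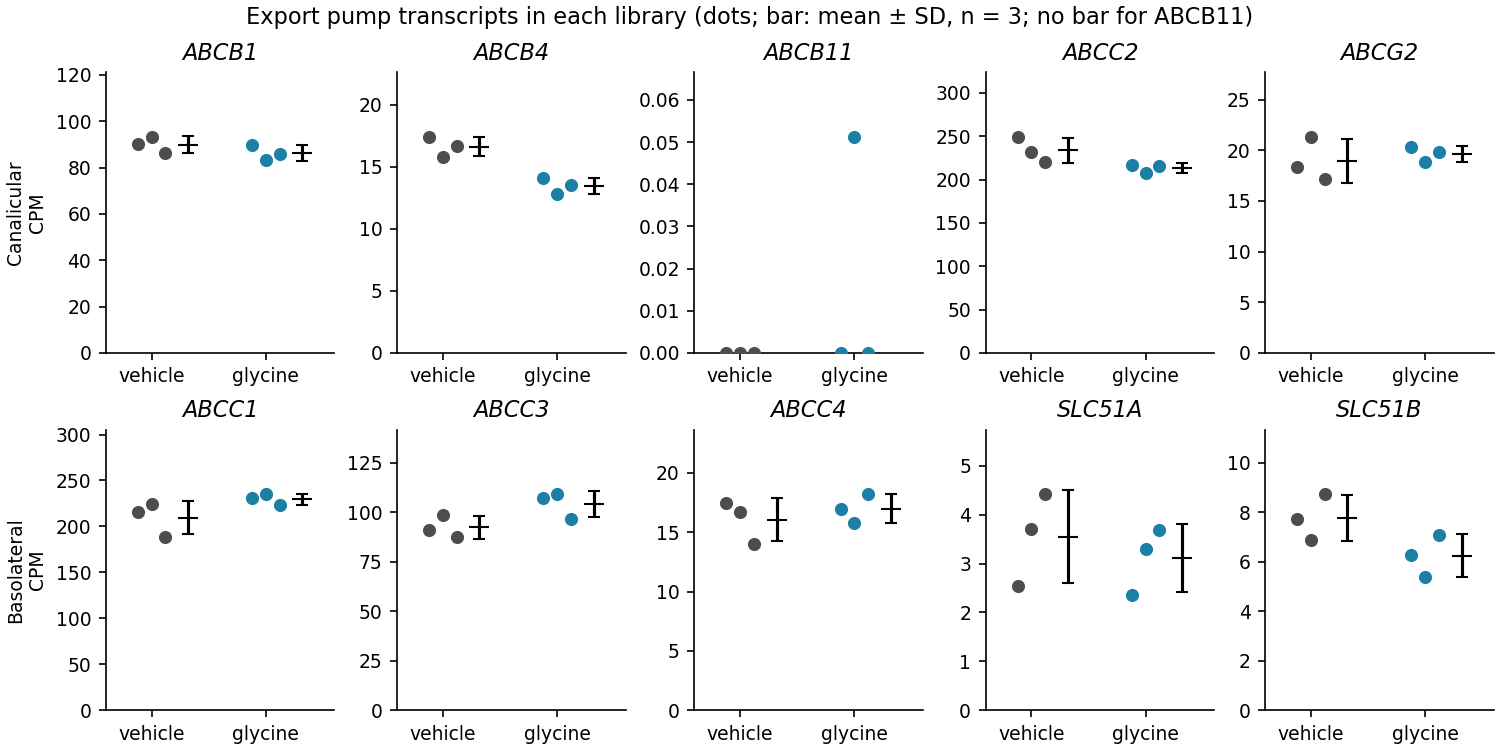
CPM of each export pump gene in the 3 vehicle libraries (grey) and the 3 glycine libraries (blue), each panel with its own axis from 0, with canalicular pumps above and basolateral exporters below. Bars show the mean ± SD (n = 3) except for ABCB11. The groups do not overlap for ABCB4 and ABCC2.

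Among the canalicular pumps, ABCB4 (ENSG00000005471, chromosome 7, 87401697 to 87480435) was at 17.4, 15.8 and 16.7 CPM with vehicle and at 14.1, 12.8 and 13.5 CPM with glycine. Every glycine library was below every vehicle library. The mean went from 16.6 ± 0.794 to 13.5 ± 0.665 CPM (SD, n = 3), and the difference on the log2 scale was -0.31 ± 0.0793 (s.e., 95% interval -0.48 to -0.14, edgeR adjusted p = 0.0216), a fall to 0.808 of the vehicle level. The call depended on single libraries: the edgeR adjusted p was 0.0678 without vehicle replicate 1, 0.0925 without glycine replicate 2 and 0.0587 without glycine replicate 3, with log2 changes of -0.29, -0.27 and -0.32.

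**Figure D2:**
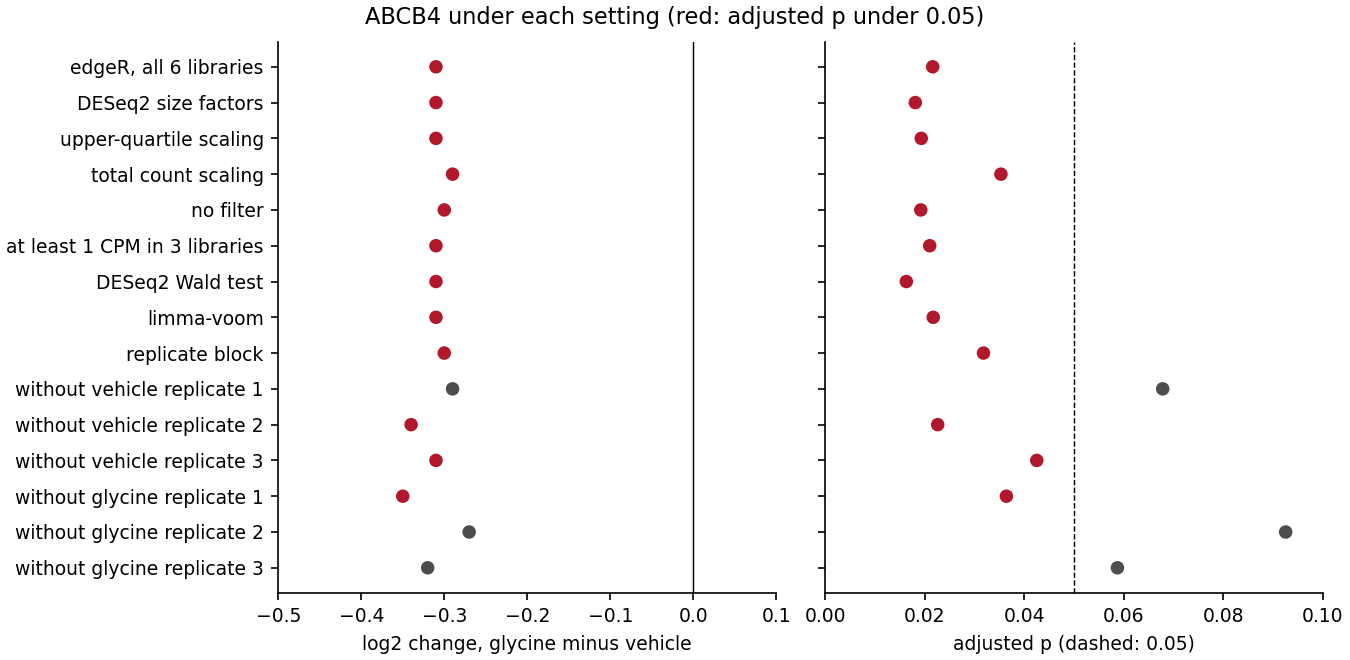
ABCB4 under each way of processing the counts: log2 change, glycine minus vehicle (left), and adjusted p with the threshold of 0.05 dashed (right). The log2 change stays between -0.35 and -0.27, and 3 fits that each leave out a library have an adjusted p above the threshold.

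The neighbouring gene ABCB1 (ENSG00000085563, chromosome 7, 87503633 to 87713323) was at 90.4, 93.2 and 86.1 CPM with vehicle and 89.8, 83.1 and 85.9 CPM with glycine, and the groups overlapped. Its log2 change was -0.06 ± 0.0623 (95% interval -0.19 to 0.07, edgeR adjusted p = 0.581). Per length, the ratio of ABCB1 to ABCB4 was 6.71, 7.61 and 6.67 with vehicle and 8.21, 8.38 and 8.22 with glycine. The ratio is given as a description, with no test, since the pair was set side by side after their values were known.

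ABCC2 (ENSG00000023839, chromosome 10, 99782732 to 99852192), which exports bilirubin and drug conjugates into bile, was the most abundant canalicular pump. It was at 249, 232 and 220 CPM with vehicle and 217, 207 and 216 CPM with glycine. All 3 glycine libraries were below the vehicle libraries, as they were for 14.4% of all tested genes, but the closest values, 217 and 220, were near each other. The log2 change of -0.13 ± 0.0652 (95% interval -0.27 to 0.01) did not pass the threshold (edgeR adjusted p = 0.213).

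ABCG2 (ENSG00000118777, chromosome 4, 88090264 to 88231322), an exporter of drugs and urate, was at 18.3, 21.3 and 17.2 CPM with vehicle and 20.3, 18.8 and 19.8 CPM with glycine. The groups overlapped, and the log2 change was 0.05 ± 0.0871 (95% interval -0.14 to 0.24, edgeR adjusted p = 0.766). The bile salt export pump ABCB11 (ENSG00000073734, chromosome 2, 168922938 to 169031322), which moves bile salts into bile in the liver, was nearly absent. It had 0 counts in 5 libraries and 3 counts in glycine replicate 2, the deepest. In the vehicle libraries 0 counts allow up to between 0.0834 and 0.0859 CPM, so a difference was not detectable at this depth.

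On the basolateral side no gene was called. ABCC1 (ENSG00000103222, chromosome 16, 15949577 to 16143074), a pump for glutathione and drug conjugates, was at 216, 224 and 189 CPM with vehicle and 231, 235 and 223 CPM with glycine. Glycine replicate 3 lay just under vehicle replicate 2. Its log2 change was 0.13 ± 0.0719 (95% interval -0.02 to 0.29, edgeR adjusted p = 0.268). ABCC3 (ENSG00000108846, chromosome 17, 50634777 to 50692252), which returns glucuronides to blood, was at 91, 98.5 and 87.4 CPM with vehicle and 107, 109 and 96.7 CPM with glycine. Here too 1 glycine library fell within the vehicle range. The log2 change was 0.18 ± 0.0698, and although its own 95% interval (0.03 to 0.33) left out 0, it did not pass over all genes (edgeR adjusted p = 0.118).

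ABCC4 (ENSG00000125257, chromosome 13, 95019829 to 95301446), an exporter of bile acids with glutathione and of cyclic nucleotides, was at 17.5, 16.7 and 14 CPM with vehicle and 17, 15.8 and 18.2 CPM with glycine. The groups overlapped, and the log2 change was 0.08 ± 0.0944 (95% interval -0.12 to 0.29, edgeR adjusted p = 0.623).

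The SLC51 genes encode the α and β subunits of the bile acid exporter, which needs both. SLC51B (ENSG00000186198, chromosome 15, 65045370 to 65053396) was at 7.73, 6.88 and 8.73 CPM with vehicle and 6.26, 5.38 and 7.1 CPM with glycine. A single glycine library, replicate 3, was within the vehicle range. The log2 change of -0.32 ± 0.125 (95% interval -0.59 to -0.05) was as large as that of ABCB4 but less certain and did not pass (edgeR adjusted p = 0.111). SLC51A (ENSG00000163959, chromosome 3, 196211487 to 196243178) was at 2.54, 3.7 and 4.42 CPM with vehicle and 2.35, 3.3 and 3.69 CPM with glycine. It varied most of the tested pumps, with a coefficient of variation of 26.7% in the vehicle libraries against 8.92% from counting alone. Its interval was wide (log2 change -0.17 ± 0.2, 95% interval -0.61 to 0.26, edgeR adjusted p = 0.627).

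**Figure D3:**
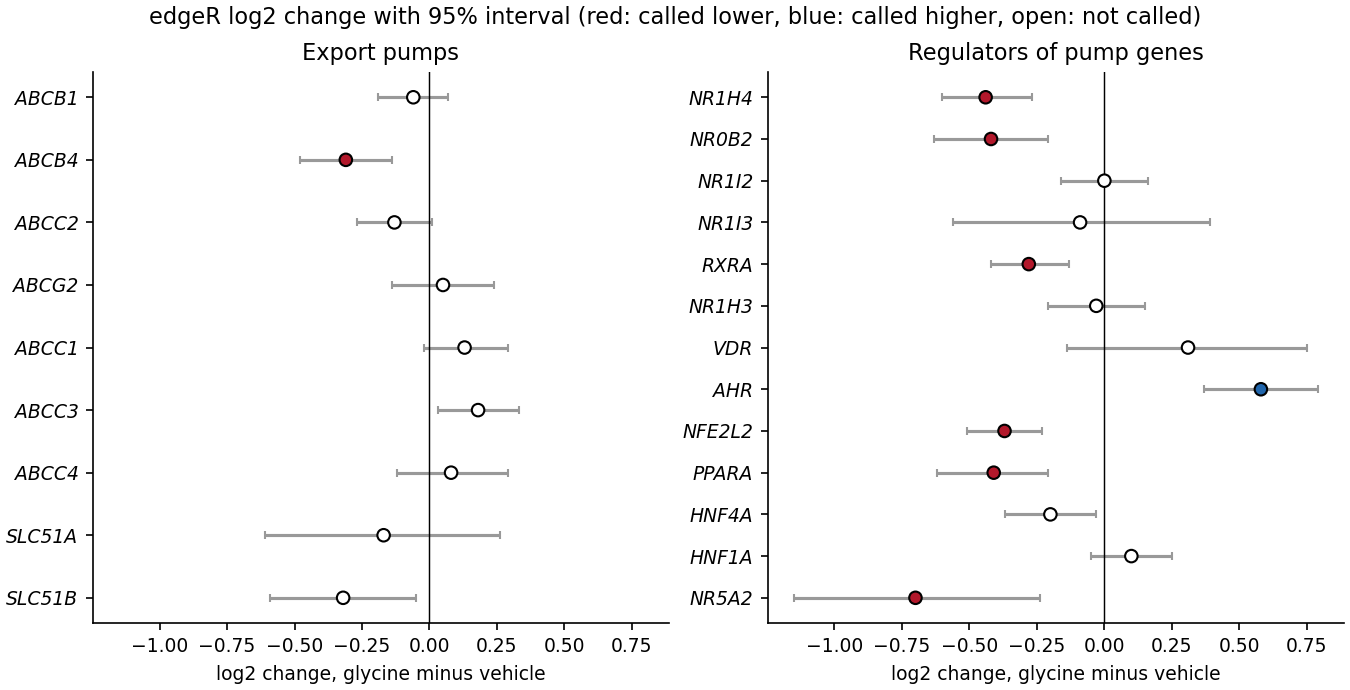
Log2 change, glycine minus vehicle, with its 95% interval from the edgeR fit, for the 9 tested export pumps (left) and the 13 regulators of pump genes (right). ABCB4 is the single called pump, at -0.31, and of the regulators 6 were called lower and 1 higher.

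To compare genes with each other, CPM values were divided by gene length (CPM per kb). With vehicle, ABCC2 led at 37.5 ± 2.3, followed by ABCC1 at 27.7 ± 2.46, ABCB1 at 15.5 ± 0.611 and ABCC3 at 9.6 ± 0.588 (SD, n = 3). SLC51B at 8.27 ± 0.987 overlapped ABCC3 in the vehicle libraries. ABCG2 stood at 3.91 ± 0.444, and ABCB4 (2.22 ± 0.106) and ABCC4 (2.05 ± 0.235) could not be ordered, since their vehicle libraries overlapped. SLC51A was at 0.671 ± 0.179 and ABCB11 at 0. Per length, SLC51B exceeded SLC51A by 10.5 to 17.1 times in the vehicle libraries and by 9.19 to 15 times in the glycine libraries. Much of this ratio comes from the gene lengths of 940 and 5293 bases, which merge 4 and 17 exons of all annotated transcripts. Before division by length the vehicle means were 7.78 ± 0.927 CPM for SLC51B and 3.55 ± 0.949 CPM for SLC51A. The lengths of the transcripts present in the cells were not measured. The order of the means was the same with glycine except that ABCC4 (2.17 ± 0.15) stood above ABCB4 (1.8 ± 0.0887), with no overlap between their libraries.

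**Figure D4:**
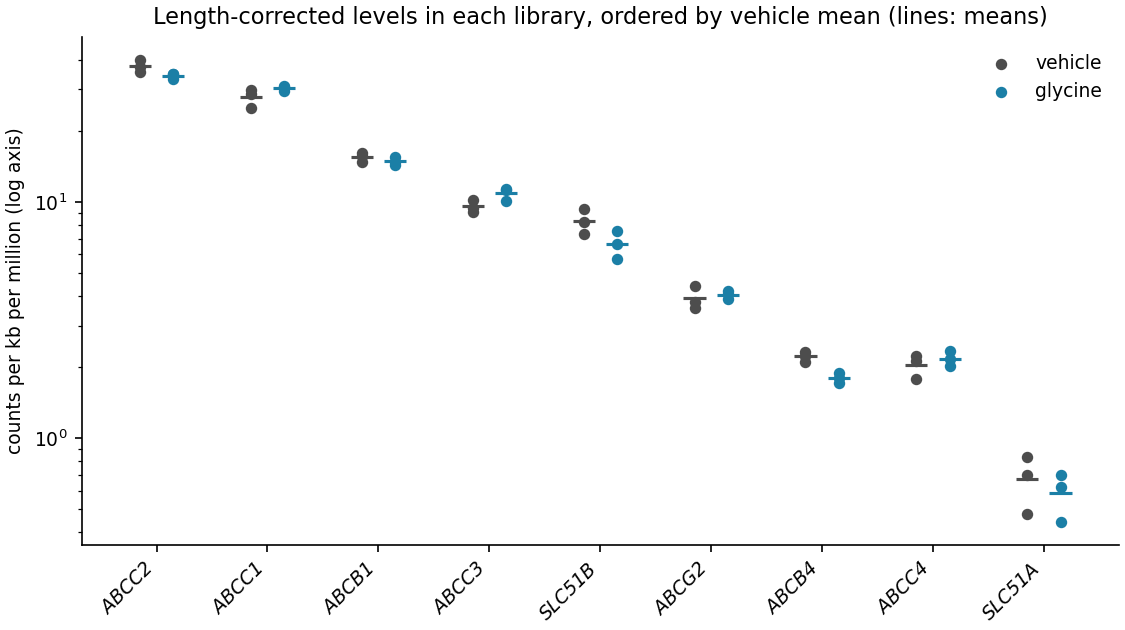
CPM per kb of the 9 detected pumps in each library, on a log axis, ordered by their vehicle mean (short lines: group means). ABCC2 leads in both groups and SLC51A is lowest, while ABCB4 and ABCC4 overlap with vehicle and are apart with glycine.

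The canalicular pumps together summed to 61.6, 59.7 and 56 CPM per kb with vehicle and 56.3, 53.1 and 55.3 with glycine, and these ranges overlapped. The basolateral exporters summed to 48.9, 50 and 45.9 with vehicle and 50.9, 50.7 and 50.1 with glycine, where the lowest glycine library was just above the highest vehicle library. The canalicular share of all pump transcripts was 55.7%, 54.4% and 54.9% with vehicle and 52.5%, 51.1% and 52.5% with glycine. The groups therefore did not overlap in this share, and the largest differences in mean level per length were those of ABCC2 and ABCC1. The ratio of ABCC2 to ABCC1 was 1.4, 1.25 and 1.42 with vehicle and 1.14, 1.07 and 1.18 with glycine. The genes of these sums were chosen with earlier results known, so no test is attached.

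**Figure D5:**
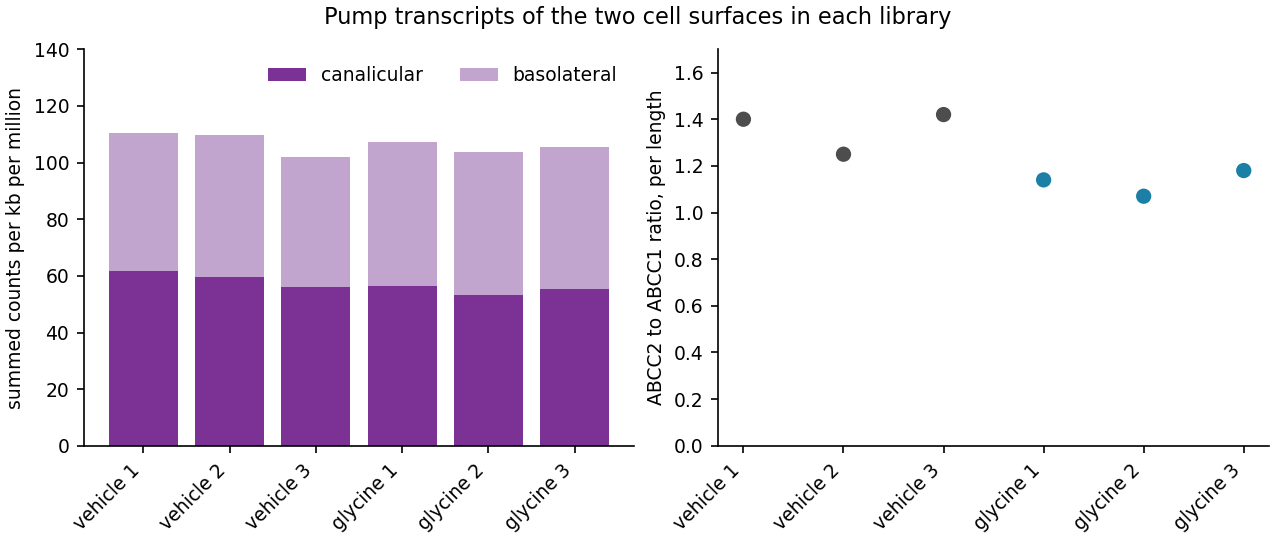
Left: summed CPM per kb of the 5 canalicular pumps and the 5 basolateral exporters in each library, from 0. Right: per-length ratio of ABCC2 to ABCC1 in each library, from 1.25 to 1.42 with vehicle (grey) and from 1.07 to 1.18 with glycine (blue).

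Genes known to regulate the pumps were described in the same way. Of 13 regulators, all tested, 6 were called lower and 1 higher, or 53.8% against 13.3% of all genes. Their median log2 change was -0.20. This list and the lists below were chosen with earlier results of these data known, so no test is attached to their shares. The bile acid receptor FXR, encoded by NR1H4, was at 41.1, 43 and 40.4 CPM with vehicle and 34.2, 28.9 and 29 CPM with glycine, and fell by 0.44 on the log2 scale (edgeR adjusted p = 0.0022). NFE2L2, the oxidant-sensing factor NRF2, fell by 0.37 on the log2 scale, from a vehicle mean of 227 ± 7.34 CPM to 175 ± 11.9 CPM with glycine (edgeR adjusted p = 0.00271), with other genes over 20.9% of its exon length. The aryl hydrocarbon receptor AHR, a sensor of planar foreign compounds, was higher by 0.58 on the log2 scale, averaging 24.2 ± 2.51 CPM in the vehicle group and 36.3 ± 4.6 CPM in the glycine group (edgeR adjusted p = 0.00171), and other genes cover 39.2% of its exons.

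The other 4 regulators called lower are named after their values were seen. They were NR0B2, the repressor SHP that FXR induces (-0.42), the FXR partner RXRA (-0.28), the fatty acid sensor PPARA (-0.41) and the low-level receptor NR5A2 (-0.70), with edgeR adjusted p from 0.0104 for PPARA to 0.0445 for NR5A2. RXRA lost its call without glycine replicate 3 (0.0691). The adjusted p of NR5A2 ran up to 0.138 when single libraries were left out, and the call held only without vehicle replicate 3. NR1I2, the drug-sensing receptor PXR known to control ABCB1 and ABCC2, was at 21.1 CPM in both groups, and the 95% interval of its log2 change ran from -0.16 to 0.16 (edgeR adjusted p = 0.998).

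FXR is known to bind inverted repeats of AGGTCA and NRF2 to bind TGACNNNGC, and both factors are known regulators of pump genes. RefSeq promoters (GRCh38.p14, 250 bases before to 50 after the start) were at hand for 7 of the 10 pump genes, and both strands were searched. The 250 bases before the start are shown for SLC51B, on the plus strand at chr15:65045137-65045386, and for ABCC4, on the minus strand at chr13:95301452-95301701, with capitals for the AGGTCA match and for the TGACNNNGC match, which ABCC4 holds on the opposite strand.
SLC51B: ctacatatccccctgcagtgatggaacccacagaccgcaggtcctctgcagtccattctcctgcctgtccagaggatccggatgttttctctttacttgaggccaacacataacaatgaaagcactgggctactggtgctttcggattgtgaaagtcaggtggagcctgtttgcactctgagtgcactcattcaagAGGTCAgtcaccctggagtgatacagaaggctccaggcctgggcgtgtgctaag
ABCC4: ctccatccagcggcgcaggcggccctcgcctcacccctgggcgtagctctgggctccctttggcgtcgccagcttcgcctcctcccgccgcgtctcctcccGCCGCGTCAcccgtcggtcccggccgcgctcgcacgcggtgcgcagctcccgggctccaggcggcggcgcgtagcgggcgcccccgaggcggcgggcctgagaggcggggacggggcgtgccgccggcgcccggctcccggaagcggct
The match begins at position -54 from the start of SLC51B and at position -149 from that of ABCC4. Over the 7 genes, AGGTCA was found in 2 (SLC51B and ABCG2, at -150 of 1 of its entries) and TGACNNNGC in 2 (ABCC4 and ABCG2, at position 2 of another entry). The 7 genes hold 12 promoter entries, and the shares over all genes are counted per entry, not per gene. AGGTCA occurs in 13.8% and TGACNNNGC in 13.3% of 35116 promoters of the same length, so neither match is rare. The inverted repeat was searched as an exact GGTCA and TGACC with 1 base of any kind between them, able to overlap an AGGTCA match. That exact form was in 0.0114% of promoters and in none of the 7 genes. Repeats that depart from it were not searched, so their presence in these promoters was not tested. For AHR, the dioxin response element core GCGTG was searched as well and is not marked above. It was found in ABCB1, ABCC4, ABCG2 and SLC51B, and it occurs in 36.5% of all promoters.

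The pumps' relatives and partners were described from lists of the same pathway. Of 40 other genes of the ABC family, not all of them transporters, 26 were tested. Of these, 3 were called lower and 1 higher (15.4%, near the 13.3% called over all tested genes). Their median log2 change was -0.08. The gene called higher was ABCF2, named after its values were seen (log2 change 0.22, edgeR adjusted p = 0.0496), and it was called in only 1 of the 6 fits that left out a library, without vehicle replicate 2, with an adjusted p of up to 0.192 in the others. ABCB6, a porphyrin transporter, went from 31.9 ± 2.92 to 19.4 ± 1.23 CPM (log2 change -0.71), although ATG9A covers 54.5% of its exons. ABCG8, which with ABCG5 moves sterols into bile, went from 25.3 ± 1.42 to 18.1 ± 0.593 CPM (log2 change -0.48). ABCA5, a lysosomal lipid transporter, had a log2 change of -0.47, and its edgeR adjusted p of 0.0207 became 0.0635 without vehicle replicate 1, 0.0637 without vehicle replicate 2 and 0.0945 without glycine replicate 2.

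Of 10 uptake carriers, 6 were tested and 2 were called lower, and the median log2 change was -0.29. That is 33.3%, against 13.3% of all tested genes in either direction and 6.54% called lower. SLCO4A1, which takes up thyroid hormone and other organic anions, went from 58.6 ± 1.2 to 33.7 ± 1.17 CPM (log2 change -0.80). SLC22A3, an organic cation carrier, went from 40.9 ± 1.2 to 29.7 ± 1.09 CPM (log2 change -0.46). The bile acid uptake carrier SLC10A1 and the hepatic anion carriers SLCO1B1 and SLCO1B3 had at most 3 counts in any library. They were at or near 0 in this line and were not tested. This did not hold for SLCO2B1, another carrier of the list, whose mean level was 42.2 ± 2.13 (vehicle) and 37.4 ± 1.02 CPM (glycine). Its groups did not overlap, but it was not called (log2 change -0.18, edgeR adjusted p = 0.0999).

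Of 15 scaffold, partner and trafficking genes, 14 were tested, and 3 were called higher and 0 lower (21.4%, against 13.3% of all tested genes in either direction). Radixin, encoded by RDX, which ties ABCC2 to the actin cortex of the canaliculus, averaged 85.6 ± 4.55 CPM in the vehicle group and 113 ± 3.79 CPM in the glycine group (SD, n = 3) and rose by 0.40 ± 0.0636 on the log2 scale (edgeR adjusted p = 0.00117). The apical syntaxin gene STX3 was also called (log2 change 0.27, edgeR adjusted p = 0.0299). STX3 lost its call in 5 of the 6 fits that left out a library, all except that without vehicle replicate 1, with an adjusted p of up to 0.112. The phospholipid flippase gene ATP8B1 had a log2 change of -0.06 and was not called (edgeR adjusted p = 0.741).

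Of 16 genes of bile acid synthesis and conjugation, 13 were tested and 2 were called lower. That is 15.4%, near the 13.3% of all tested genes called in either direction, of which 6.54% were called lower. CYP27A1, the mitochondrial sterol 27-hydroxylase, went from 229 ± 9.46 to 186 ± 3.6 CPM (log2 change -0.30). CYP8B1, the 12α-hydroxylase that sets the share of cholic acid, went from 2.09 ± 0.405 to 1.05 ± 0.17 CPM (log2 change -1.02). BAAT, which joins bile acids to glycine or taurine, was at 2.31 ± 0.291 and 2.93 ± 0.133 CPM and was not called (log2 change 0.34, edgeR adjusted p = 0.149).

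Of 9 target genes of the drug receptors PXR and CAR, 6 were tested and 2 were called lower (33.3%, against the same 13.3% in either direction and 6.54% lower). They were the fetal enzyme gene CYP3A7 (4.07 ± 0.533 to 1.94 ± 0.125 CPM, log2 change -1.06) and CYP3A5 (10.7 ± 0.495 to 7.48 ± 0.351 CPM, log2 change -0.52). Over the 6 tested genes the median log2 change was -0.08, with 2 changes above 0 and 4 below. The read-through gene CYP3A7-CYP3A51P covers 42.7% of the exons of CYP3A7, and reads of the close CYP3A paralogs could have been split. The edgeR adjusted p of the genes of these lists given without one ranged from 3.81e-06 for SLCO4A1 to 0.00576 for CYP8B1.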

How the data were processed

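Gene-level read counts were deposited by the authors, 1 file per library and 57500 genes in each, and were used as whole-number counts without normalization. The submitters' processing notes name Trimmomatic 0.36, STAR 2.5.2b, featureCounts, Subread 1.5.2 and GRCh38. The annotation release, strand setting and treatment of reads that map to several places are not given in the sources used here, so reads of overlapping genes may be shared. Of the genes, 56410 had a symbol, and 7 of the 10 pump genes had the same ends in GENCODE 29.

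Libraries were grouped by their labels. Genes were filtered with filterByExpr (minimum count 10, minimum total 15), TMM-normalized and tested with the edgeR 4.0.16 quasi-likelihood test in R 4.3.3 (two-sided, group as the single term), with Benjamini-Hochberg adjustment over 15492 genes. Standard errors were the log2 change divided by the square root of F. Limits from 3 counts cover counting error only. Alternatives were other scalings, other filters, DESeq2 1.42.0, limma-voom 3.58.1, blocking on the replicate number and 6 fits without 1 library each. Promoters came from RefSeq and transcripts from GENCODE 29. The coding sequences of ABCB1 and ABCB4 were aligned globally with Biopython 1.88.

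The pump genes and pathway lists were chosen with earlier results of these data known. All 10 pumps are named, with up to 3 called members with the smallest p-values from each list and the marker genes. BAAT, ATP8B1, NR1I2, SLC10A1, SLCO1B1, SLCO1B3, SLCO2B1, ABCF2 and 4 regulators were named in addition, after their values were seen. The values of 1 called gene of these lists are not reported here.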

Additional observations from a re-analysis of the deposited data

How the results depend on the processing

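The count of called pumps, 1 lower and 0 higher, was the same under the 3 other scalings (upper quartile, totals, size factors of DESeq2), the 2 other filters, the DESeq2 Wald test, limma-voom and the replicate block. Leaving out 1 library at a time, it ran from 0 to 1 lower, with 0 higher in each. Over all tested genes those fits called 587 to 927 higher and 655 to 1008 lower, against 1040 and 1013 with all libraries. They hold fewer samples, and the cause was not tested further. In the 126 refitted values of the 9 pumps, 120 kept their direction and side of the threshold. ABCB4 lost its call in 3, given above. Without vehicle replicate 3 the uncalled changes of ABCC4 (-0.01), ABCG2 (-0.02) and SLC51A (0.02) changed sign, and over the 6 such fits the ranges were -0.01 to 0.14, -0.02 to 0.14 and -0.38 to 0.02. Of 280 such values of called pathway genes 251 kept their call, 29 did not, and 0 changed sign. Total count scaling moved the split of all called genes to 55.9% higher, from 50.7%, and called 5 regulators lower in place of 6.

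The replicate numbers of the labels were checked for pairing. The correlation of deviations from the group mean between a vehicle and a glycine library of equal number was -0.058, -0.027 and -0.003, so the numbers were not treated as pairs. No library correlated best with its own number, and pairs of unequal number ran from -0.198 to 0.214. Which libraries share a day is not given in the sources used here. With the replicate block 864 genes were called higher and 915 lower, and ABCB4 was called (log2 change -0.30, edgeR adjusted p = 0.0318). ABCF2 (adjusted p = 0.059) and NR5A2 (adjusted p = 0.0541) were not called with it.

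Depth limited ABCB11, at 0 counts in 5 libraries. The spread between vehicle libraries exceeded counting error in every tested pump. It was largest for SLC51A, with a coefficient of variation of 26.7% against 8.92% from counting, and for ABCC1 it was 8.88% against 1.16%.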
